A study of Mus musculus with 4 samples.

Results

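Expression of 9 genes of the regenerating intestinal epithelium was examined in sorted crypt stem cells. These were the genes whose symbols are Clu, Ly6a, Anxa1, Yap1, Wwtr1, Tead1, Lats1, Lats2 and Amotl2, and all 9 were found among the 18436 genes listed. CREPT, encoded by Rprd1b, is a regulator of transcription, and the comparison asked how its loss in Lgr5+ stem cells changed their RNA. Lgr5-GFP-high cells were sorted from the intestines of C57BL/6 mice, 2 of the genotype Lgr5-CREPT WT (WT) and 2 of the genotype Lgr5-CREPT KO (KO). All 4 mice carried Lgr5-EGFP-IRES-creERT2, which places GFP and a tamoxifen-inducible Cre recombinase under the Lgr5 gene, and the KO mice also carried CREPT fl/fl. In both genotypes a daily intraperitoneal dose of 1 mg of tamoxifen was given 5 times, and cells were taken on day 7. The study used young adult mice of both sexes, and the age and sex of each of these 4 were not given. The model has limits: GFP from this allele is mosaic across crypts, Cre acts where Lgr5 is expressed, and a cell that had lost its GFP by day 7 was not collected.

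YAP (Yap1) and TAZ (Wwtr1) are transcriptional coactivators without a DNA-binding domain of their own, and they act on genes through the TEAD factors. In the Hippo pathway the kinases LATS1 and LATS2 phosphorylate both coactivators, which keeps them out of the nucleus, and angiomotin proteins such as AMOTL2 bind YAP at junctions. After injury the intestinal epithelium passes through a YAP-dependent, fetal-like state marked by Ly6a (Sca-1) and Anxa1, and rare cells with high Clu, called revival stem cells, give rise to new Lgr5+ cells.

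Levels are given in each mouse as FPKM, which divides the fragments of a gene by transcript length in kilobases and by the library's mapped fragments. Differences are log2 fold changes, KO minus WT, on the log2(FPKM + 0.5) scale, where low values give a smaller difference than their ratio would. The 12621 genes that averaged 0.5 FPKM or more were compared with limma's moderated test, and a gene was called at a Benjamini-Hochberg adjusted p below 0.05. An exact permutation test has a smallest two-sided p of 0.333 with 2 mice in each group, so a call rests on the spread that limma pools over genes. The value of 1 fragment was estimated from low values, scaled to a transcript of 1 kb. In each library the median of those between 0.03 and 0.08 FPKM was taken, and was 0.0543 to 0.0577 FPKM. That implies roughly 18400000 and 18100000 mapped fragments in the WT mice and 17900000 and 17300000 in the KO mice. The same window was used for every library and bounds these medians. They cannot tell whether the libraries were of similar size. Numbers of fragments given below for single genes are rough estimates from these medians and the longest annotated coding transcript. They share this limit.

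The targeted gene, Rprd1b, was expressed at 17.7 and 18.1 FPKM in the WT mice and at 6.65 and 7.36 FPKM in the KO mice. Both KO mice were below both WT mice, and the limma estimate was -1.29 on the log2 scale (adjusted p = 0.0280). The gene spans 158028475 to 158078207 on chromosome 2 of GRCm38.p6, the build of all positions given here. The cells carried the markers of crypt base stem cells in both genotypes. Olfm4, the most abundant of the 11 markers, was 5077 and 4932 FPKM in the WT mice and 5351 and 5181 FPKM in the KO mice. Lgr5 was 47.7 and 37.7 FPKM against 52.0 and 60.1 FPKM, and the transcription factor gene Ascl2 was 34.6 and 37.5 FPKM against 43.1 and 46.9 FPKM. In these 3 genes the KO values lay above the WT values, and none was called, with adjusted p of 0.685 for Olfm4, 0.176 for Lgr5 and 0.113 for Ascl2 from limma.

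None of the 9 genes was called by limma. Of them, 7 reached the level at which genes were tested, and Lats2 and Anxa1 did not. Over all genes tested, 389 (3.08%) were called, of which 337 (2.67%) had lower and 52 (0.412%) higher levels in KO cells. With each library scaled to the same FPKM total, 242 were called as lower and 86 as higher. The unadjusted p was below 0.05 in 2 of the 7 genes, Clu and Tead1, where 24.5% of all genes tested passed. Both KO values lay above both WT values in 3 of the 7 genes tested, Clu, Yap1 and Tead1, and in Lats2, and in no gene did both lie below. That makes 4 of the 9, beside 20.6% of all 18436 listed genes. The count among the 9 was 6 with scaled totals (29.3% of all listed genes in that setting) and 7, with Anxa1 at about 3 fragments among them, without KO mouse 1 (35.6%). Over all genes tested, 25.6% had both KO values above and 31.0% had both below. The median log2 fold change of the 7 genes was 0.15, beside -0.01 for all genes tested. With a mouse left out it ran from 0.0556 to 0.266. With scaled totals it was 0.23, beside 0.0578 for all genes tested in that setting. The calls depend on having 4 mice and on the treatment of low values: limma called 0 genes with any mouse left out or without the filter on low values, and 4 without an intensity trend.

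**Figure D1:**
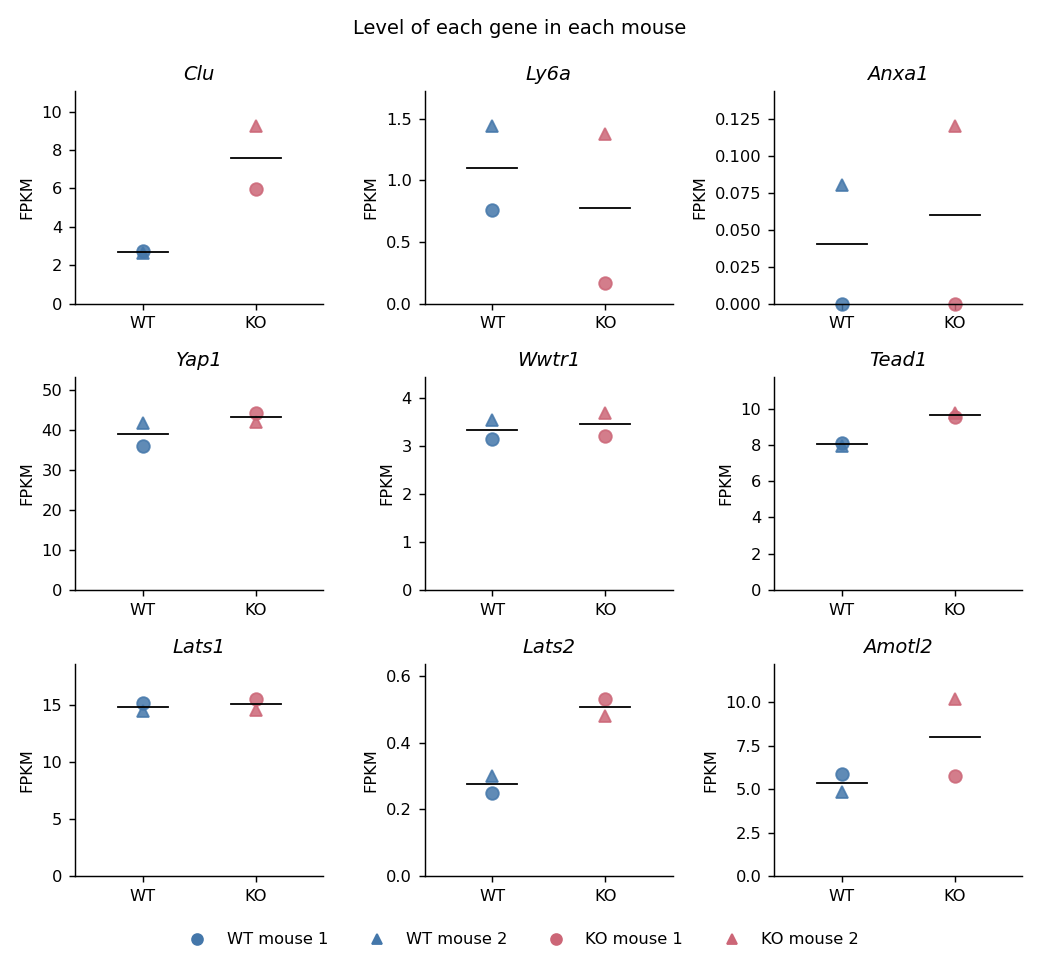
Level of each gene in FPKM (vertical axes from 0, with a scale of their own) in the 2 WT mice and 2 KO mice, with the group mean as a bar. The KO mice lie above the WT mice in Clu, Yap1, Tead1 and Lats2, and the genotypes overlap in Ly6a, Anxa1, Wwtr1, Lats1 and Amotl2.

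The 9 genes spanned a wide range of levels. Yap1 was the most abundant, above 89.1% of all listed genes by its mean, followed by Lats1, Tead1, Amotl2, Clu, Wwtr1, Ly6a, Lats2 and Anxa1. Yap1 and Lats1 stood apart from their neighbours in every mouse. The ranges over the 4 mice overlapped between Tead1 and Amotl2, between Amotl2 and Clu and between Ly6a and Lats2, so their order within each pair is not settled beyond the spread. The order of Clu and Wwtr1 differed by genotype, with Clu below Wwtr1 in both WT mice and above it in both KO mice. Anxa1 was the lowest of the 9 in every mouse.

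Clu, on chromosome 14 between 65968483 and 65981548, encodes the secreted chaperone clusterin and showed the largest difference among the tested genes of the 9. It was 2.75 and 2.62 FPKM in the WT mice and 5.96 and 9.24 FPKM in the KO mice. The WT mice were close to each other, and both KO mice were above them, with KO mouse 2 the highest. The KO mean of 7.60 ± 2.32 FPKM (SD, n = 2) was 2.83 times the WT mean of 2.69 ± 0.0919 FPKM (SD, n = 2). Roughly 92 and 86 fragments stood behind the WT values and 193 and 290 behind the KO values. The log2 fold change was 1.32 (95% interval 0.75 to 1.88, limma), and 50 of the 12621 genes tested had a larger positive one. Its adjusted p of 0.0540 missed the threshold. It crossed it, at 0.0489, when the filter was raised to 1 FPKM, and at 0.0498 under either other scaling of the libraries, within a range of 0.0489 to 0.150 over the alternatives that kept all 4 mice. The gap between the KO mice was wide for this dataset, since 6.57% of genes tested had a wider one.

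The genes whose values over the 4 mice were most like those of Clu were Lama5, Acta1 and Col20a1, by Euclidean distance between log2 values centred on each gene's mean (0.197, 0.198 and 0.222, out of 10848 genes compared). Lama5, which encodes a laminin chain of the basement membrane, was 1.22 and 1.10 FPKM in the WT mice and 3.47 and 4.85 FPKM in the KO mice. Acta1, a muscle actin gene, was 1.99 and 1.73 FPKM against 3.77 and 7.19 FPKM. Col20a1, a collagen gene, was 0.62 and 0.50 FPKM against 1.96 and 2.54 FPKM. These genes were picked by the same 4 values, so their higher KO levels and their order of mice follow from the choice, and no test is given for them.

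Ly6a, which encodes the surface protein Sca-1 and is itself induced by interferon, lies on chromosome 15 from 74994877 to 74998031. It was 0.760 and 1.44 FPKM in the WT mice and 0.170 and 1.38 FPKM in the KO mice. KO mouse 1 was the lowest of the 4 and KO mouse 2 was close to WT mouse 2, so the genotypes overlapped. About 13, 25, 3 and 23 fragments stood behind these values, in that order. The log2 fold change of -0.48 had a 95% interval from -1.90 to 0.94 (adjusted p = 0.644, limma) and turned to 0.27 without KO mouse 1. No difference was detected, and the interval holds sizeable differences in either direction. Of the 50-base stretches in annotated Ly6a transcripts, 19.0% also occur in other genes, most often in Ly6c1, named for that reason and not by its level, which was listed at 0 in 3 mice and at 0.10 FPKM in KO mouse 2. How the quantification divided such fragments was not tested.

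The annexin gene Anxa1 (chromosome 19, 20373434 to 20390671) was listed at 0 in WT mouse 1 and KO mouse 1, at 0.08 FPKM in WT mouse 2 and at 0.120 FPKM in KO mouse 2. These values amount to about 2 and 3 fragments, too few for any comparison.

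Of 20 revival and fetal-like genes, 9 were tested, 0 were called by limma (1 at an unadjusted p below 0.05), and the median log2 fold change was -0.41. At the lower end of the list, Ly6e, a relative of Ly6a and the most abundant gene here, was 115 and 177 FPKM in the WT mice and 107 and 64.9 FPKM in the KO mice (-0.77, adjusted p = 0.214). Anxa3 was 0.780 and 1.14 FPKM against 0.340 and 0.490 FPKM (-0.67, adjusted p = 0.211, limma). In both genes the KO values lay below the WT values. Anxa3 averaged 0.96 FPKM in the WT and 0.415 FPKM in the KO mice, so only its WT values carried it past the filter and into the median. Clu and Anxa2 were the only tested genes of the list with a positive log2 fold change, and Anxa2 overlapped between genotypes at 37.0 and 46.2 FPKM against 44.3 and 50.2 FPKM (0.19, adjusted p = 0.438, limma). Clu was the only tested gene of the list with both KO values above both WT values, and 4, Anxa3 among them, had both below. The shares of all genes tested were 25.6% above and 31.0% below. The remaining 11 genes averaged under 0.5 FPKM, and among them Spp1, Gja1 and Il1rn, named after their values were seen, had both KO values above both WT values and Vsig1, named likewise, had both below. Over all 5815 genes not tested the shares were 9.60% and 17.4%. The list's median rests on KO mouse 1, without which it was 0.01 with 5 of 9 genes positive, and on the filter, being -0.07 with no filter and -0.17 with a minimum of 1 FPKM. It was also -0.14 without WT mouse 2.

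**Figure D2:**
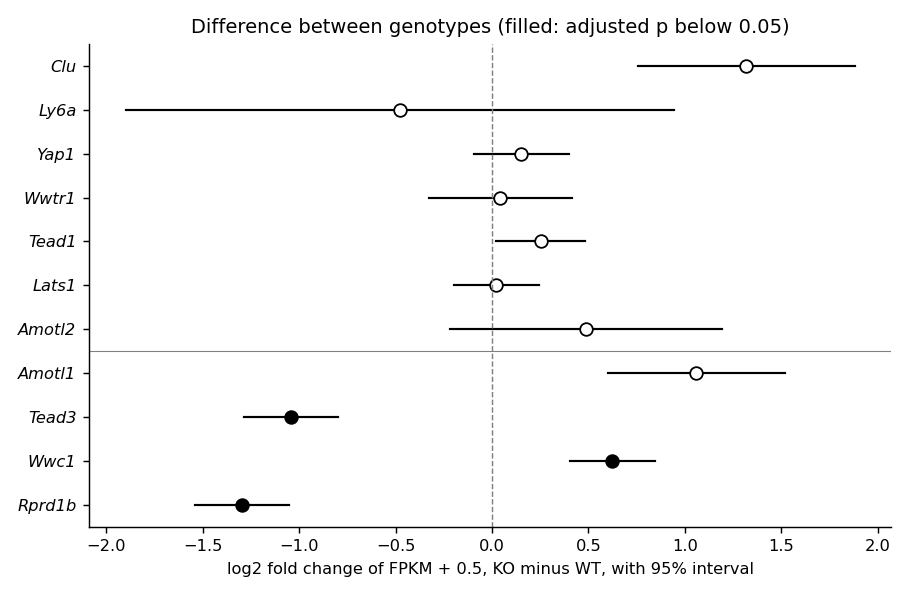
Log2 fold change of FPKM + 0.5, KO minus WT (horizontal axis), with its 95% interval from limma, for the 7 tested genes above the line and for Amotl1, Tead3, Wwc1 and Rprd1b below it. Filled points, in Tead3, Wwc1 and Rprd1b, had an adjusted p below 0.05, and the interval of Clu lies from 0.75 to 1.88 without such an adjusted p.

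Yap1 (chromosome 9, 7931999 to 8004638) was 36.1 and 41.7 FPKM in the WT mice and 44.3 and 42.03 FPKM in the KO mice. Both KO values were above both WT values, by a margin of less than the gap between the WT mice. Its log2 fold change of 0.15 had a 95% interval from -0.09 to 0.40 (adjusted p = 0.391, limma), and was 0.05 without WT mouse 1 and 0.26 without WT mouse 2. Wwtr1 (chromosome 3, 57455644 to 57575910) was 3.13 and 3.53 FPKM against 3.21 and 3.69 FPKM, and the genotypes overlapped (log2 fold change 0.04, interval -0.33 to 0.41, adjusted p = 0.883, limma), with a sign that turned to -0.03 without WT mouse 1 and to -0.04 without KO mouse 2. Within each mouse Yap1 exceeded its paralog Wwtr1 by a factor of 11.5 and 11.8 in the WT mice and of 13.8 and 11.4 in the KO mice, on the FPKM scale. The message of YAP was thus the predominant of the pair in all 4 mice.

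Tead1, on chromosome 7 from 112679356 to 112906784, encodes a DNA-binding partner of both coactivators. It was 8.13 and 7.95 FPKM in the WT mice and 9.56 and 9.78 FPKM in the KO mice. The mice of each genotype were close together and the genotypes did not overlap. The difference was 0.25 (95% interval 0.02 to 0.48) with an unadjusted p of 0.0384 and an adjusted p of 0.179 from limma.

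Its paralog Tead3 was the only called gene among 6 tested of the 8 YAP, TAZ and TEAD factors, where 2.67% of all genes were called lower. Tead3 was 16.2 and 17.9 FPKM in the WT mice and 8.15 and 7.83 FPKM in the KO mice. It fell by 1.04 on the log2 scale (adjusted p = 0.0298, limma), with both KO mice below both WT mice. With a mouse left out its adjusted p lay between 0.129 and 0.295. Tead2 was 8.73 and 10.5 FPKM against 14.2 and 9.82 FPKM, highest in KO mouse 1, and overlapped between genotypes. Its log2 fold change of 0.29 (adjusted p = 0.429, limma) was 0.03 without KO mouse 1 and 0.54 without KO mouse 2. Tead4 averaged under 0.5 FPKM. Tead3 made up 48.6% and 49.0% of the summed FPKM of the 4 Tead genes in the WT mice and 25.3% and 28.1% in the KO mice, while Tead2 made up 26.3% and 28.8% against 44.0% and 35.3% and Tead1 24.5% and 21.8% against 29.7% and 35.1%. Tead2 thus had the largest share in both KO mice, by a small margin over Tead1 in KO mouse 2. The sums were 33.2 and 36.4 FPKM in the WT mice and 32.2 and 27.8 FPKM in the KO mice. Vgll4, which competes with YAP for TEAD, was 38.5 and 38.7 FPKM against 49.3 and 45.7 FPKM, with the KO mice above (0.29, adjusted p = 0.1004, limma). The median log2 fold change of the 6 tested factors was 0.20, and was 0.11 without WT mouse 1 and 0.12 without KO mouse 1.

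**Figure D3:**
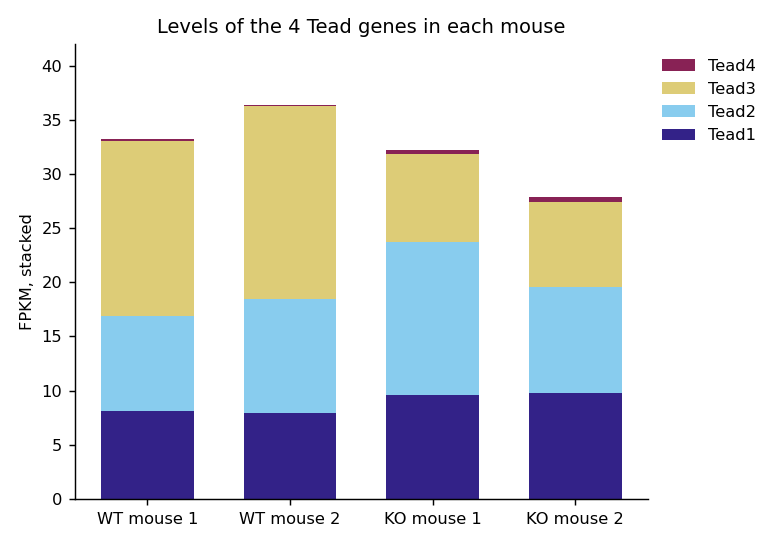
FPKM of Tead1, Tead2, Tead3 and Tead4 stacked for each mouse (vertical axis from 0). Tead3 is 16.2 and 17.9 FPKM in the WT mice and 8.15 and 7.83 FPKM in the KO mice. Tead1 is higher in both KO mice than in both WT mice, and Tead2 is the largest of the genes within each KO mouse.

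The promoters of Yap1, Wwtr1, Lats2 and Amotl2 are shown because YAP and TAZ act through TEAD, whose core motif is GGAATG, and because Lats2 and Amotl2 are known targets of that complex. Promoter windows of 300 bases from RefSeq on GRCm38.p6 were found for 6 of the 9 genes, and Clu, Ly6a and Tead1 had none. The motif was searched on both strands, and capitals mark each match (CATTCC where it lies on the opposite strand). Windows are written 5′ to 3′ along the gene. They lie at chr9:8004547-8004846 on the minus strand for Yap1, at chr3:57575861-57576160 on the minus strand for Wwtr1, at chr14:57746074-57746373 on the minus strand for Lats2 and at chr9:102717554-102717853 on the plus strand for Amotl2.
Yap1: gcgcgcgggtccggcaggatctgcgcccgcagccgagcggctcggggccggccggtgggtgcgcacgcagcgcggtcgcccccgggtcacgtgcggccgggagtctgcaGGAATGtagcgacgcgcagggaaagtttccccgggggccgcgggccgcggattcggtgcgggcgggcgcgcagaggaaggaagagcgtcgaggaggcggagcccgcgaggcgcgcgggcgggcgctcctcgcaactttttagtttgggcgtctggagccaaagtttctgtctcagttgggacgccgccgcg
Wwtr1: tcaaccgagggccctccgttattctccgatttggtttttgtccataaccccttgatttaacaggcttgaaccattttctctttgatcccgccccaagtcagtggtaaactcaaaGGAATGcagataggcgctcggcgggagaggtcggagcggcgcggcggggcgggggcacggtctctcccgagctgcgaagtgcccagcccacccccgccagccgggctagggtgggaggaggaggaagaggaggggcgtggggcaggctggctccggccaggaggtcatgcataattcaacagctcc
Lats2: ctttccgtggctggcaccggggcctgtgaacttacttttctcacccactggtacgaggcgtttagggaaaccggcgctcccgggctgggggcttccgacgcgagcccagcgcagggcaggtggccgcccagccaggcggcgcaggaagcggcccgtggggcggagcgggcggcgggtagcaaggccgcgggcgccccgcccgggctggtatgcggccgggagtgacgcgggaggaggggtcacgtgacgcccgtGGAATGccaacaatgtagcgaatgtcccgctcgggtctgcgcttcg
Amotl2: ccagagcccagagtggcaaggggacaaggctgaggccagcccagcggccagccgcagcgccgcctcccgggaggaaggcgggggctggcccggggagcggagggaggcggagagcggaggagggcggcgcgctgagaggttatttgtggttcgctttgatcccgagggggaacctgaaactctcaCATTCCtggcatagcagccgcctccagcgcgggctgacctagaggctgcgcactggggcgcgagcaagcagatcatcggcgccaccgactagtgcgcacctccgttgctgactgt
Each of these windows held 1 match, and so did that of Anxa1. The 6 genes had 8 windows in all, of which 6 held the motif, beside 14.7% of 32851 promoter windows. Both windows of Wwtr1 are counted, though they overlap and hold the same match. Among windows of the YAP and TAZ target genes listed below, which include Lats2 and Amotl2, 7 of 17 (41.2%) held it. The window of Lats1 and the other window of Lats2 held none. The AP-1 motif TGANTCA, which does not contain the TEAD letters, was in 0 of the 8 windows and in 7.81% of all windows. A match describes the letters of a window and is not evidence of binding.

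Among the Hippo kinases, Lats1 was the predominant paralog. Lats1 (chromosome 10, 7681200 to 7716461) was 15.2 and 14.5 FPKM in the WT mice and 15.5 and 14.6 FPKM in the KO mice. The genotypes overlapped, and the log2 fold change of 0.02 had a narrow 95% interval from -0.20 to 0.24 (adjusted p = 0.903, limma). Its sign turned to -0.01 without WT mouse 2 and to -0.02 without KO mouse 1. Lats2 (chromosome 14, 57689662 to 57746212) was 0.25 and 0.30 FPKM in the WT mice and 0.53 and 0.48 FPKM in the KO mice. Both KO values were above both WT values, on about 49 and 43 fragments against 24 and 28. Lats2 averaged 0.39 FPKM and was not tested in the fit. Of its 50-base stretches, 41.2% also occur in the annotated gene Gm49361, which was not analysed here. Lats1 exceeded Lats2 by a factor of 60.7 and 48.2 in the WT mice and of 29.3 and 30.4 in the KO mice.

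Most genes of the upstream pathway had their higher values in the KO mice. All 17 tested genes of the 20 Hippo kinases and adaptors had a positive log2 fold change, from 0.02 to 0.62. Their median was 0.16, beside -0.01 for all genes tested. In 13 of them both KO values lay above both WT values, beside 25.6% of all genes tested. The differences were small: 4 of the 17 had an unadjusted p below 0.05, beside 24.5% of all genes, and 1 was called, where 0.412% of all genes were called higher. This was Wwc1, which encodes the adaptor KIBRA, at 18.8 and 17.0 FPKM in the WT mice and 27.5 and 28.3 FPKM in the KO mice. It rose by 0.62 on the log2 scale (adjusted p = 0.0398, limma), and lost its call with a mouse left out (adjusted p 0.181 to 0.295). Next came Fat1, an atypical cadherin gene, at 19.7 and 17.7 FPKM against 27.4 and 23.3 FPKM (0.43, adjusted p = 0.109, limma). The KO mice were above the WT mice in both genes. With KO mouse 2 left out, 15 genes of the list were positive, and with any other mouse left out 16. Markers of other cells separated the same mice: the median log2 fold change was 0.17 for stem, -1.16 for goblet, -1.60 for enteroendocrine and -1.26 for tuft cell markers, and their part in these values was not tested.

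The product of Amotl2 (chromosome 9, 102717091 to 102733418) binds YAP, and the gene is also induced by it. Amotl2 was 5.89 and 4.85 FPKM in the WT mice and 5.79 and 10.2 FPKM in the KO mice. KO mouse 2 stood above the rest, while KO mouse 1 lay within the WT range. The log2 fold change was 0.49 (95% interval -0.22 to 1.19, adjusted p = 0.342, limma), and was 0.11 without KO mouse 2. Of all genes tested, 4.26% had a wider gap between the KO mice.

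Its paralog Amotl1 differed more evenly. Amotl1 was 0.770 and 0.750 FPKM in the WT mice and 2.14 and 2.11 FPKM in the KO mice. The mice of each genotype were nearly equal, on about 127 and 122 fragments against 344 and 327. The log2 fold change was 1.06 (adjusted p = 0.0558, limma), above the threshold of 0.05. Of the 12 YAP-binding and inhibiting scaffolds, 11 were tested and 0 were called by limma (3 at an unadjusted p below 0.05). Their median log2 fold change was 0.12, with 7 of 11 positive, and turned to -0.01 without KO mouse 2 (5 of 11 positive). It was 0.19 with scaled totals (10 of 11 positive) and 0.16 with quantile normalization (9 of 11 positive). Ywhaz, a 14-3-3 gene, was 168 and 158 FPKM against 138 and 145 FPKM, with the KO mice below (-0.20, adjusted p = 0.182). The 14-3-3 gene Ywhaq overlapped between genotypes at 184 and 178 FPKM against 179 and 171 FPKM (-0.05, adjusted p = 0.715), a sign that turned to 0.03 and 0.04 under the other scalings.

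The target genes of YAP and TAZ were read next, as a readout of the pathway. Of 22 genes in the list, 10 were tested and 0 were called by limma (0 at an unadjusted p below 0.05), with a median log2 fold change of 0.18. It was 0.07 over the 21 listed genes with no filter and 0.11 without KO mouse 2. Cyr61 (now Ccn1), a secreted matrix protein gene, was the most abundant, at 153 and 47.2 FPKM in the WT mice and 136 and 154 FPKM in the KO mice. WT mouse 2 stood below the other mice, and without it the log2 fold change of 0.76 (adjusted p = 0.444, limma) was -0.09. Ctgf (now Ccn2), of the same family, was 0.410 and 0.200 FPKM against 0.490 and 1.33 FPKM, on about 19, 9, 22 and 57 fragments. KO mouse 2 was the highest, as in Amotl2 (0.75, adjusted p = 0.304, limma). Ctgf averaged 0.305 FPKM in the WT and 0.91 FPKM in the KO mice, so only its KO values carried it past the filter. At the lower end, Myof was 0.430 and 0.870 FPKM against 0.380 and 0.480 FPKM (-0.28, adjusted p = 0.617, limma). Its means were 0.65 FPKM in the WT and 0.43 FPKM in the KO mice, so only its WT values carried it past the filter. Both Ctgf and Myof count in the list's median. Gadd45a was 31.1 and 26.9 FPKM against 25.7 and 24.4 FPKM (-0.20, adjusted p = 0.281, limma). A further 11 genes of the list averaged under 0.5 FPKM.

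Ligands of the EGF receptor family include genes induced by YAP in regeneration. Hbegf was 70.3 and 22.03 FPKM in the WT mice and 56.3 and 65.4 FPKM in the KO mice. WT mouse 2 was the lowest, as in 4 of the 8 listed ligands, and the log2 fold change of 0.62 (adjusted p = 0.525, limma) was -0.21 without it. Btc and Nrg4 moved little (0.18 and -0.15, adjusted p = 0.418 and 0.491, limma). Of the 9 ligands, 5 were tested and 0 were called by limma (0 at an unadjusted p below 0.05), with a median log2 fold change of 0.14 that turned to -0.20 without WT mouse 2 (2 of 5 positive).

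**Figure D4:**
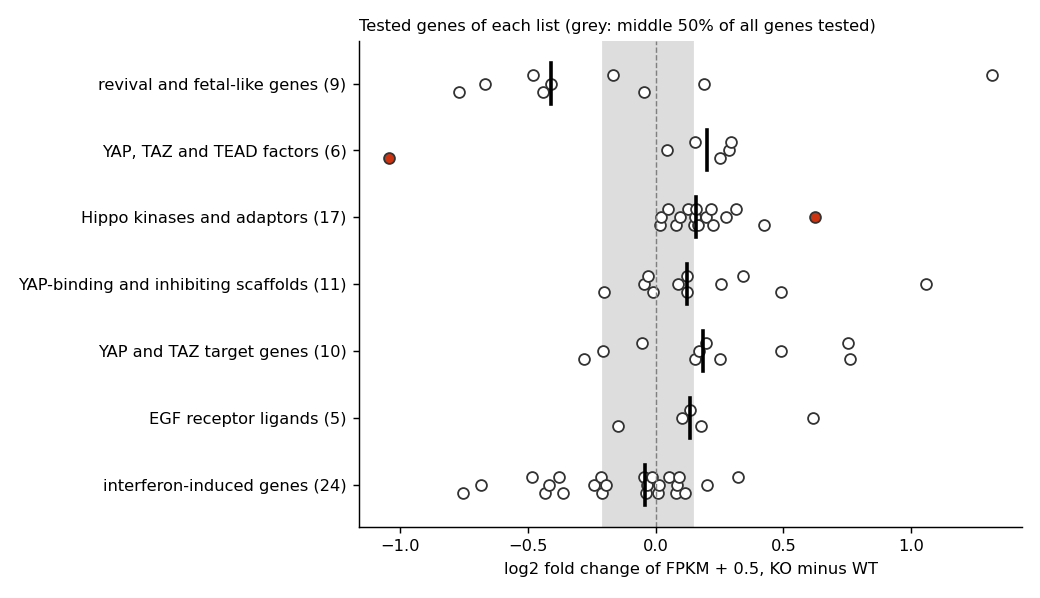
Log2 fold change of FPKM + 0.5, KO minus WT (horizontal axis), of each tested gene in the 7 pathway lists, whose numbers of tested genes stand in brackets. Black bars are list medians, red points had an adjusted p below 0.05 (Tead3 and Wwc1), and the grey band runs from the lower quartile (-0.21) to the upper quartile (0.15) of all genes tested.

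Ly6a was read beside the interferon-induced genes, of which 24 of 28 were tested and 0 were called by limma (1 at an unadjusted p below 0.05, median log2 fold change -0.04). The sign of this median turned with the settings: it was 0.21 without KO mouse 1, 0.06 without WT mouse 2, -0.35 without WT mouse 1 and -0.49 without KO mouse 2, and 0.01 and 0.03 under the other scalings. The list was lowest in KO mouse 1, as was Ly6a, in 26 of its 28 genes. Summed over the list, the level was 744 and 1062 FPKM in the WT mice and 627 and 842 FPKM in the KO mice. Irf7, an interferon regulatory factor, was 5.67 and 6.17 FPKM against 2.17 and 4.92 FPKM (-0.75, adjusted p = 0.257), and Gbp2 was 0.86 and 1.28 FPKM against 0.11 and 1.04 FPKM (-0.68, adjusted p = 0.447, limma). Without KO mouse 1 these were -0.24 for Irf7 and -0.01 for Gbp2. At the upper end were Tap1 and Igtp, at 0.32 and 0.20 (adjusted p = 0.539 and 0.837, limma). Over all 7 pathway lists, 81 of 114 listed genes were tested and 2 (2.47%) were called by limma, beside 3.08% of all genes tested. The unadjusted p was below 0.05 in 12 of the 81, where 24.5% of all genes passed.

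Immune cells also express Ly6a. They do not carry Lgr5-driven GFP, so the GFP-high gate should remove them, and the levels of their markers were read in each mouse. The 10 immune markers summed to 7.12 and 10.7 FPKM in the WT mice and 3.74 and 17.6 FPKM in the KO mice. Of them, 9 were lowest in KO mouse 1 and 9 were highest in KO mouse 2. The most abundant, the T cell gene Cd3g, was 1.79 and 1.55 FPKM against 0.590 and 3.37 FPKM, none of the 10 was at 0 in any mouse, and 0 of 8 tested were called by limma (0 at an unadjusted p below 0.05). Their part in the values of Ly6a was not tested. In bulk RNA of this kind, fewer cells of a type and less RNA per cell cannot be told apart.

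Markers of other cells were set beside Clu, Amotl2 and Ctgf, which were all highest in KO mouse 2. Tead1, Wwtr1, Anxa1 and Cyr61 were also highest in that mouse, so the pattern is not particular to these genes. The 10 Paneth cell markers summed to 1520 and 1126 FPKM in the WT mice and 908 and 2919 FPKM in the KO mice, with 8 highest in KO mouse 2 and 0 of 10 called by limma (0 at an unadjusted p below 0.05). The most abundant of them, the defensin gene Defa24, was 592 and 406 FPKM against 289 and 1081 FPKM. The 10 enterocyte markers summed to 590 and 738 FPKM against 465 and 765 FPKM, with 8 highest in KO mouse 2 and 0 called by limma (1 at an unadjusted p below 0.05), led by Vil1 at 171 and 182 FPKM against 87.1 and 119 FPKM. The sums of both lists were lowest in KO mouse 1, where Clu was 5.96 FPKM. The 8 fibroblast markers summed to 0.22, 0.14, 0.10 and 0.61 FPKM over the mice in the same order, and the most abundant, Dcn, reached 0.28 FPKM. Of 7 endothelial markers, 6 averaged below 0.5 FPKM, and the other, Esam, was 9.89 and 8.76 FPKM against 8.0 and 7.98 FPKM, and the list summed to 10.4, 9.33, 8.50 and 8.36 FPKM. The part of Paneth cells and enterocytes in the values of these genes was not tested.

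Markers of other secretory lineages were read in the same way. Both KO values lay below both WT values in 9 of 10 goblet, 9 of 10 enteroendocrine and 7 of 8 tested tuft cell markers, beside 31.0% of all genes tested, and the genotypes overlapped in the others. Of 10 goblet cell markers, 3 were called lower by limma, Spink4, Ccl9 and Ern2 (-1.30, -1.42 and -1.17, adjusted p = 0.0333, 0.0373 and 0.0473), and the list summed to 1491 and 2481 FPKM in the WT mice and 817 and 948 FPKM in the KO mice, led by Tff3. The share of all genes called lower was 2.67%, and Ern2 lost its call with scaled totals and with quantile normalization (adjusted p 0.0523 and 0.0603, in a range of 0.0415 to 0.137 with all 4 mice). Of 10 enteroendocrine markers, 6 were called lower by limma, Chgb, Neurod1, Cck, Ghrl, Tac1 and Pax4, beside 2.67% of all genes, and the list summed to 220 and 317 FPKM against 72.6 and 81.4 FPKM, led by Chgb. Tac1 lost its call with scaled totals and with a pseudocount of 0.1 (adjusted p 0.052 and 0.0527, in a range of 0.0414 to 0.144 with all 4 mice). The tuft cell markers summed to 31.0 and 64.6 FPKM against 26.6 and 9.76 FPKM, led by Avil, with 0 of 8 called by limma (4 at an unadjusted p below 0.05). The 11 stem cell markers summed to 6213 and 6003 FPKM against 6730 and 6525 FPKM, with 0 called by limma (5 at an unadjusted p below 0.05). In 9 of these 11 both KO values were the higher, beside 25.6% of all genes tested. The unadjusted p was below 0.05 in 24.5% of all genes tested. The part of these cells in the values of Tead3 and Amotl1, which separated the genotypes in the same 2 against 2 mice, was not tested.

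**Figure D5:**
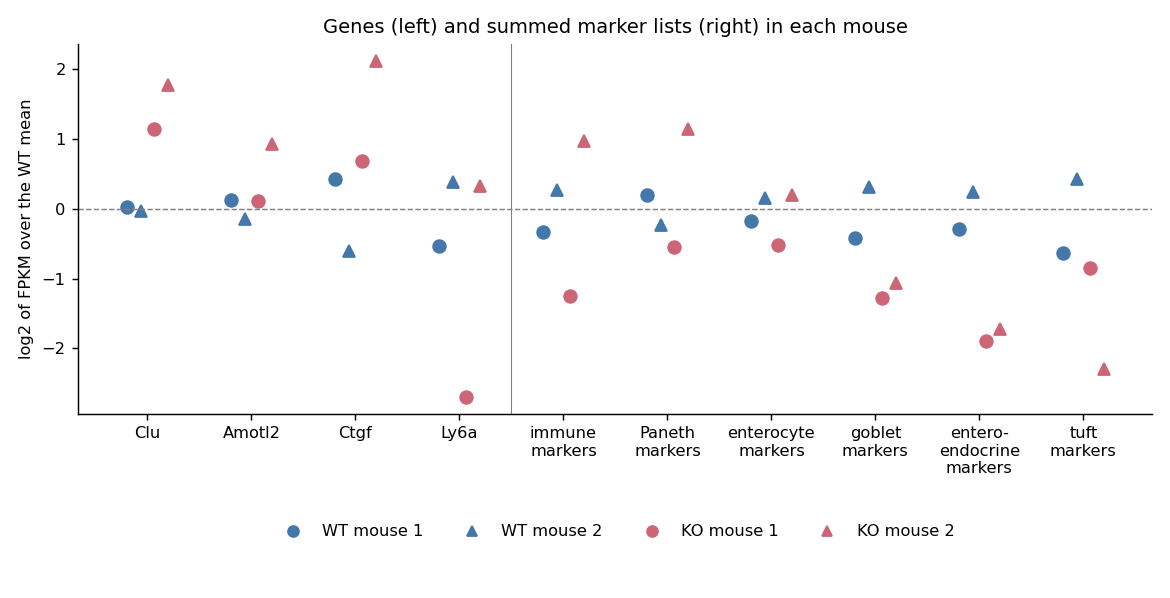
Level of Clu, Amotl2, Ctgf and Ly6a (left of the line) and of summed cell type markers (right) in each mouse, as log2 of FPKM over the mean of the WT mice (vertical axis). Ly6a and the immune markers are lowest in KO mouse 1, and Clu, Amotl2, Ctgf and the Paneth markers are highest in KO mouse 2.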

How the data were processed

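RNA of sorted Lgr5-GFP-high cells was sequenced on a BGISEQ-500, 1 library for each of 4 mice. The authors deposited FPKM values by gene symbol, rounded to 2 decimals. The RNA-seq methods of the study describe crypts and intestines and do not mention these sorted cells. There, Bowtie2 aligned reads to GRCm38.p6 transcripts and RSEM computed expression. The submitters' processing notes also name HISAT, with no role, and mm10. Versions were not given in the sources used here. FPKM is relative to each library, so a large change in a few abundant genes shifts the others.

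Columns were matched to mice by sample title. A pseudocount of 0.5 was added, genes averaging under 0.5 FPKM were left out, and the other 12621 were fitted with limma 3.58.1 (lmFit, eBayes with an intensity trend; R 4.3.3) and adjusted by Benjamini-Hochberg. The values are FPKM, so the count model of the study was not run. The method was tested on simulated data. Descriptions used Python 3.11.15, pandas 2.3.3 and scipy 1.17.1.

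The 9 genes and all lists were chosen with earlier results of these data known. Genes are named by a rule: the 9, called genes of pathway lists and the 2 largest differences of each list in each direction, Rprd1b, Lgr5, Olfm4 and Ascl2, the most abundant and the called cell type markers, and the 3 genes most like Clu. The marker lists were for stem, Paneth, goblet, enteroendocrine, tuft, enterocyte, immune, fibroblast and endothelial cells. Ankrd1, Nrg1, Sh2d6 and Tie1, each on a list, were absent from the deposited genes. The proteins of the paralog pairs were not compared. Coordinates and promoter windows are from RefSeq on GRCm38.p6. The value of 1 fragment was the median of FPKM times length in kb between 0.03 and 0.08, a window chosen after seeing the values, over 370 protein-coding genes with a single GENCODE M21 transcript of 900 to 1500 bases. RSEM estimates need not be whole, and intervals do not cover this. Alternatives varied the pseudocount, filter, scaling, trend, threshold, replicate block and the mice used.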

Additional observations from a re-analysis of the deposited data

How the results depend on the processing

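With 2 mice in each group, limma's calls depended on the settings while most directions did not. The number of genes called in all went from 389 to 0 without a filter on low values (3570 at an unadjusted p below 0.05), to 4 without an intensity trend, to 144 with the added limit of 1 on the log2 fold change and to 1362 at an adjusted p below 0.1. It was 0 with any 1 mouse left out (1803 to 2379 at an unadjusted p below 0.05), where the lone mouse of a group is assumed to vary like the others. Those fits had fewer samples, and the cause of the other changes was not tested.

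The number of the 9 genes called was 0, and became 1, Clu, with the filter at 1 FPKM, with each library scaled to the same total, with quantile normalization and at an adjusted p below 0.1. Their median log2 fold change was 0.0556 to 0.266 with a mouse left out, and the number with the KO values above the WT values was 5 to 7, where 29.1% to 35.6% of all listed genes were above in the same settings. Of the pathway list genes, 2 were called, 0 without the filter, without the trend or with any mouse left out, 1 with the replicate block, and 3 with the filter at 1 FPKM, with scaled totals and with quantile normalization.

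Mice of the same number are separate animals, and their deviations were not related (correlation -0.03 across 12621 genes, which are not independent). With mouse number as a block, 183 genes were called, and the number of the 9 genes called stayed 0. Wwc1, Ern2, Ccl9, Chgb, Neurod1 and Pax4 lost their calls (adjusted p 0.0594, 0.0579, 0.0514, 0.0514, 0.0508 and 0.0539).

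Of the 51 tested genes that the naming rule gives, 10 turned their sign under an alternative. With a mouse left out, log2 fold changes ran from -1.22 to 0.266 in Ly6a, -0.044 to 0.132 in Wwtr1, -0.0219 to 0.0662 in Lats1, -0.087 to 1.6 in Cyr61, -0.21 to 1.44 in Hbegf, -0.76 to 1.14 in Defa24, -0.99 to 0.84 in Cd3g, -0.44 to 0.84 in Igtp and -0.0356 to 0.68 in Tap1. Ywhaq was 0.0306 with scaled totals and 0.0416 with quantile normalization, and Cd3g was 0.04 with the latter. Without a turn of sign, a left-out mouse moved Yap1 between 0.0498 and 0.255, Tead2 between 0.0345 and 0.541 and Ly6e between -1.13 and -0.409. Anxa2 moved between 0.0304 and 0.347, Gadd45a between -0.309 and -0.1 and Nrg4 between -0.197 and -0.0941. Irf7 moved between -1.26 and -0.243 and Gbp2 between -1.35 and -0.0148. In the fits that held them, Ctgf lay between 0.565 and 1.2 and Myof between -0.561 and -0.204. The filter left out Ctgf without KO mouse 2 and Myof without WT mouse 2, so these ranges do not cover those fits. Of 605 values for 51 named genes, 488 kept their sign and their side of the threshold. Anxa1, at about 3 fragments or fewer in a library, is too shallow to compare. Ly6a and Lats2 rest on at most about 49, and how much of their spread is due to depth was not tested.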
